A study of Homo sapiens with 10 samples.

Results

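The APOBEC3 enzymes are cytidine deaminases of innate immunity that convert cytosine to uracil in single-stranded DNA. They are best known for restricting retroviruses and retroelements, and APOBEC3A and APOBEC3B are also known to leave cytosine mutations in the genomes of several tumour types. APOBEC3C, APOBEC3D, APOBEC3F, APOBEC3G and APOBEC3H act mainly in the cytoplasm on viral cDNA, and several of the genes are induced by interferon, whereas APOBEC3B is also a target of NF-kB and of the DREAM repressor complex of the cell cycle.

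All 7 APOBEC3 genes were taken by gene symbol from the 57955 genes measured by mRNA sequencing in 5 BRAF V600E melanoma cell lines. Each line was sequenced in 2 states, giving 1 library per line and state and 10 in all. The sensitive state was the original line, without drug. The resistant state was the same line after continuous exposure to encorafenib, a BRAF inhibitor, together with binimetinib, a MEK inhibitor, raised from 1 to 200 nM over 3 to 5 months and then held at 200 nM, so that selection for resistance and the presence of drug cannot be told apart. WM983A and WM278 were labelled as primary tumour lines, as was WM902B, and WM983B and WM1617 as metastatic lines. WM983A and WM983B come from one patient, and WM278 and WM1617 from another. Libraries held 13970608 to 16966008 counts in the sensitive and 13693922 to 18033247 in the resistant state, so that 3 counts, taken as the floor of detection, corresponded to 0.166 to 0.219 CPM (counts scaled to the library's total). Because no line has a replicate library, each test compares lines as replicates. The tests count WM983A and WM983B as separate replicates although they share a patient.

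The gene cluster was chosen by its measured values, namely the high ratio of the resistant over the sensitive WM278 library along this stretch of the genome, so the WM278 ratios are given as a description and the tests used the other 4 lines. With windows of 5, 7 or 10 neighbouring genes, the best window holding at least 4 of the members ranked 866 of 16986, 163 of 16938 and 140 of 16866 by median log2 ratio in WM278, so the cluster was not the highest window at these sizes. The median log2 ratio of these windows was 0.80, 1.17 and 0.98. The filter on low counts kept 6 of the 7 members and removed APOBEC3H.

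The labelled cell type was checked with marker lists. The summed level of 8 melanocyte markers was 429 to 4501 CPM in the sensitive and 89.8 to 4429 CPM in the resistant libraries. Its median log2 ratio was -5.95 in WM983A, -4.24 in WM983B and -7.58 in WM902B, but 0.24 in WM278 and -0.16 in WM1617. In WM278 most of these markers were low in both states. Sensitive and resistant counts there were 70.4 and 67.3 for PMEL, 9 and 9.26 for TYR and 12.1 and 6.21 for MLANA. DCT had 15 and 54.8, TYRP1 4 and 37.3 and MITF 171 and 227. SOX10 (5080 and 4294) and S100B (1480 and 9807) were higher. In sensitive WM1617, PMEL had 28268 and TYR 3184 counts. Over the 4 lines other than WM278, 1 of the 8 was lower at an unadjusted p of 0.05 (TYRP1), and with the cell line as a block 6 were, beside 3.6% of all genes lower and 3.81% higher with the block, and TYRP1 was not among them (unadjusted p = 0.154, edgeR). Of 10 lymphoid and myeloid markers, cells in which several APOBEC3 genes are abundant, CD3D and AIF1 had 0 counts in every library and PTPRC, the pan-leukocyte marker, 0 to 4.99. CD14, a myeloid receptor, had 5 counts in sensitive and 81 in resistant WM983B and 3 and 14 in WM902B, and at most 6 in the other libraries. CD68, a lysosomal protein of myeloid and other cells, had 202 counts in sensitive and 628 in resistant WM983B and 113 and 507 in WM902B. It had 1093 and 1157 in WM1617 (log2 ratio -0.24), 589 and 219 in WM983A and 120 and 72.5 in WM278. LYZ, the lysozyme gene, had 53.9 and 0 counts in WM983B, 11.7 and 0 in WM902B and 16.5 and 1 in WM278. In WM983A it had 35.5 and 1, and in WM1617 17.5 and 50.4. Their summed level was 8.76 to 80.2 CPM in the sensitive and 4.83 to 70 CPM in the resistant libraries, and 2 of the 10, CD68 and LYZ, passed the filter. The summed level of 6 fibroblast markers was 7.37 to 80 CPM in the sensitive and 7.77 to 1589 CPM in the resistant libraries. Of the 4 fibroblast markers tested, COL1A1 (log2 fold change 6.46, unadjusted p = 0.0154, edgeR) and PDGFRB (4.68, unadjusted p = 0.0363, edgeR) were higher and neither passed adjustment, and with the cell line as a block PDGFRB was no longer past 0.05 (unadjusted p = 0.118, edgeR). The other fibroblast markers tested, DCN and LUM, had log2 fold changes of -0.10 and -0.66 (unadjusted p = 0.936 and 0.572, edgeR). In WM983A, LUM had 797 counts in the sensitive and 5 in the resistant library and DCN 42 and 0, and the median log2 ratio of the 4 markers was -3.38. The summed level of 6 keratinocyte markers was 21.1 to 57.6 CPM in the sensitive and 17.8 to 147 CPM in the resistant libraries, and KRT10, the marker that passed the filter, had a log2 fold change of 0.32 (unadjusted p = 0.543, edgeR). CDH1, the E-cadherin gene, had 10 counts in sensitive and 781 in resistant WM983A and at most 3.97 in the other 8 libraries. The part of these markers in the APOBEC3 values was not tested, and in bulk RNA fewer cells of a kind and less RNA per cell cannot be told apart.

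The 7 genes lie head to tail on the plus strand of chromosome 22 over 151 kilobases (GRCh38, GENCODE 44, positions 38952741 to 39104067). APOBEC3A (ENSG00000128383) spans chr22:38952741-38963184 and APOBEC3B (ENSG00000179750) chr22:38982347-38992804. APOBEC3C (ENSG00000244509) spans chr22:39014257-39020352, APOBEC3D (ENSG00000243811) chr22:39021113-39033277 and APOBEC3F (ENSG00000128394) chr22:39040604-39055972. APOBEC3G (ENSG00000239713) spans chr22:39077067-39087743 and APOBEC3H (ENSG00000100298) chr22:39097224-39104067. All are protein-coding.

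The genes are recent duplicates, and a read of 75 bases can fit more than 1 of them. Of the 75-base windows of annotated APOBEC3A exon sequence, 15.9% (224 of 1405) also occur in APOBEC3B, and 20.7% of the APOBEC3B windows occur in some other member. The share with any other member was 11% for APOBEC3D, 9.66% for APOBEC3G, 7.41% for APOBEC3F and 0.272% for APOBEC3C, and it was 0% for APOBEC3H. The pairs with the longest identical runs are shown by 1 read length of coding exon each, as an example of a stretch with little to tell them apart. The capital marks the single base by which the stretches of a pair differ (GRCh38, plus strand, APOBEC3A at chr22:38961507-38961581, APOBEC3B at chr22:38991452-38991526, APOBEC3D at chr22:39031816-39031890 and APOBEC3F at chr22:39052196-39052270).
APOBEC3A: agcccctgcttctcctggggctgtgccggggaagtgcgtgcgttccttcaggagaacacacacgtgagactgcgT
APOBEC3B: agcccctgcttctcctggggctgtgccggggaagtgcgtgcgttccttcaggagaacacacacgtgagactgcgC
APOBEC3D: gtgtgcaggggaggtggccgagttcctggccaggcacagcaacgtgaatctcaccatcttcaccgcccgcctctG
APOBEC3F: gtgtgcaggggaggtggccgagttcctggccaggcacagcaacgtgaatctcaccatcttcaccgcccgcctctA

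The longest identical run of coding exon was 196 bases for APOBEC3D with APOBEC3F, 194 for APOBEC3A with APOBEC3B, 155 for APOBEC3B with APOBEC3D, 131 for APOBEC3B with APOBEC3F and 125 for APOBEC3F with APOBEC3G. How reads that fit several genes were assigned is not given in the sources used here, so the values of these genes are uncertain by the reads they share. Whether counting used the strand is not stated either. The antisense transcript APOBEC3B-AS1 and the pseudogene APOBEC3AP1 had at most 1.18 counts in any library.

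Per kilobase of exon, the lines expressed mainly APOBEC3B and APOBEC3C. APOBEC3C had a median level of 33.5 CPM per kilobase over the 10 libraries (20.8 to 53.7) and APOBEC3B, the nuclear member with 2 deaminase domains, 28.7 (24.1 to 64.1). APOBEC3G, the main restriction factor of HIV lacking Vif, followed at 6.41 CPM per kilobase (0.187 to 26) and APOBEC3D at 4.68 (0.519 to 9.54). APOBEC3A had a median of 2.63 CPM per kilobase (2.14 to 6.3), APOBEC3F 2.44 (1.55 to 2.78) and APOBEC3H 0.0988 (0 to 0.249). The ranges of neighbours in this order overlapped, except those of APOBEC3F and APOBEC3H. APOBEC3B made up 35.7% to 54.7% of the summed APOBEC3 level per kilobase in the sensitive and 23.4% to 48.4% in the resistant libraries, and APOBEC3C 31.3% to 45.6% and 38.4% to 45.7%. The share of APOBEC3G was 2.98% to 12.4% in the sensitive libraries and ranged from 0.338% in resistant WM1617 to 22.2% in resistant WM278.

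**Figure D1:**
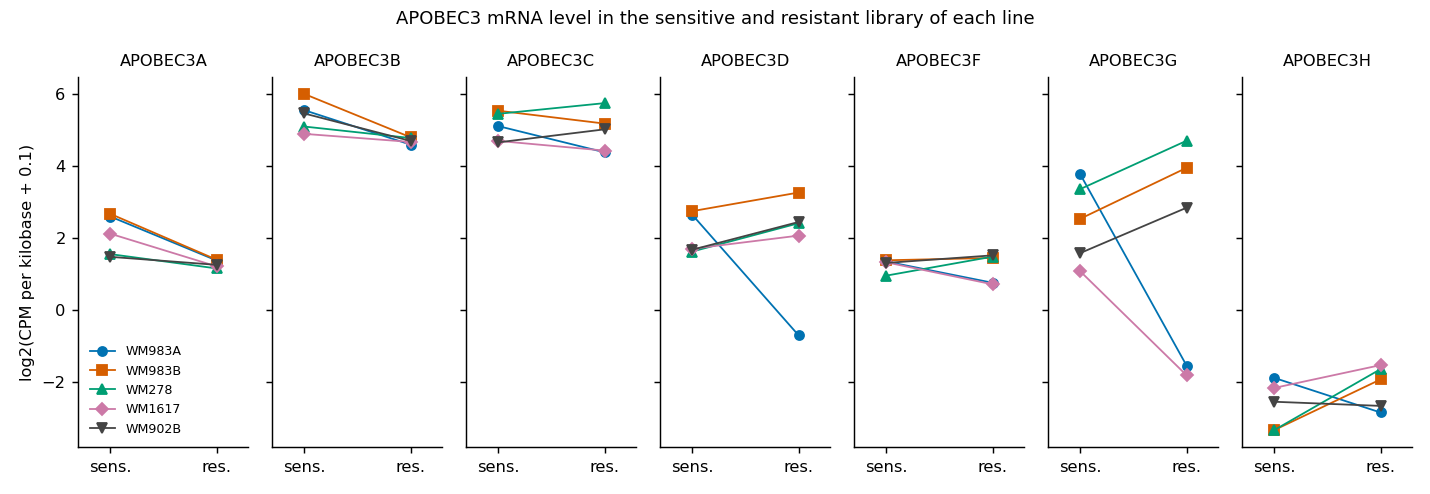
Level of each APOBEC3 gene (y axis, log2 of CPM per kilobase plus 0.1) in the sensitive (sens.) and resistant (res.) library of each line, with a line joining both libraries of a cell line. APOBEC3B and APOBEC3C lie highest, and APOBEC3H lies near the floor, with at most 4.97 counts in a library. The APOBEC3G lines of WM983A and WM1617 slope downwards while the other 3 slope upwards.

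The first comparison asked whether the mutagenic members differed between resistant and sensitive cells. Both APOBEC3B and APOBEC3A were lower in the resistant than in the sensitive library of every line, and the resistant libraries lay in a narrow band. Normalized counts of APOBEC3B were 1352, 1848, 985, 856 and 1268 in sensitive WM983A, WM983B, WM278, WM1617 and WM902B. In the resistant libraries, in the same order, they were 696, 801, 791, 731 and 748. The highest resistant library was thus below the lowest sensitive one, with a mean of 753 ± 43.2 (SD, n = 5) against 1262 ± 385 (SD, n = 5). These groups include WM278, whose ratio chose the members. Over the 4 lines without it, 1.31% of all genes tested were separated in this direction. Within lines, the log2 ratio was -0.96, -1.21, -0.32, -0.23 and -0.76 in this order for the resistant over the sensitive library, and the 95% counting interval, which covers counting error only, lay below 0 in all 5 lines.

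APOBEC3A, a single-domain deaminase of high activity on DNA, had normalized counts of 134, 142, 64.2, 96 and 60.8 in the sensitive libraries in the same order of lines. The resistant libraries had 56.4, 57.4, 48.1, 50.2 and 51.7. Here too the groups, again with WM278, did not overlap. The mean was 52.8 ± 4 (SD, n = 5) in the resistant against 99.4 ± 37.9 (SD, n = 5) in the sensitive libraries. The share of 1.31% of all genes over the 4 lines without WM278 applies here as well. The log2 ratios of these lines were -1.24, -1.29, -0.41, -0.92 and -0.23, and the counting intervals of WM278 (-0.96 to 0.15) and WM902B (-0.82 to 0.32) reached 0. As a share of the APOBEC3B counts of the same library, APOBEC3A counts were 4.79% to 11.2% in the sensitive state. In the resistant state they were 6.08% to 8.1%. Of the APOBEC3B windows, 11.4% (224 of 1963) also fit APOBEC3A, and of the APOBEC3A windows 15.9% also fit APOBEC3B. How far APOBEC3A counts come from APOBEC3B reads was not tested, so both genes are not independent observations.

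In the 4 lines that did not choose the members, the log2 fold change of resistant against sensitive was -0.83 for APOBEC3B (SE 0.25, unadjusted p = 0.0101, adjusted p = 0.739, edgeR quasi-likelihood test) and -1.00 for APOBEC3A (SE 0.36, unadjusted p = 0.0213, adjusted p = 0.739, edgeR). Neither therefore passed the adjusted threshold. This fit had no term for the cell line. With the cell line as a block, APOBEC3B had -0.78 (unadjusted p = 0.0169, edgeR) and APOBEC3A -0.93 (unadjusted p = 0.0382, edgeR). Of all genes, 3.6% were lower at an unadjusted p of 0.05 with the block. Leaving out 1 line, with no block, took the unadjusted p of APOBEC3A to 0.0889 (without WM983A), 0.0941 (without WM983B) and 0.0565 (without WM1617), all from edgeR. That of APOBEC3B went to 0.0509 without WM983A (edgeR). WM983A and WM983B, which share a patient, had the lowest ratios of both genes, and no fit left out both lines. Without the block, 2.04% of the 17307 genes tested were lower at an unadjusted p of 0.05, and so were these 2 of the 6 members tested. With a 2-fold change asked for as well, 1.13% of genes were lower and 3.73% higher, and 0 members were either, since both genes were under 2-fold before rounding. The groups of 4 did not overlap, resistant below sensitive, for 1.31% of all genes tested and for the same 2 members, and resistant above sensitive for 1.2% of genes and 0 members. Over the same lines, 8.13% of genes were lower in each line and 8.02% higher in each. With edgeR, 0 genes passed an adjusted p of 0.05 with a 2-fold change, 1146 had an unadjusted p of at most 0.05, and DESeq2 called 113.

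The spread of both genes was smaller among resistant than among sensitive lines. Over the same 4 lines, the coefficient of variation (CV) of normalized counts of APOBEC3B was 30.6% in the sensitive and 5.85% in the resistant libraries, where counting alone would give 3.65%. For APOBEC3A it was 34.6% and 6.48%, with 13.6% from counting alone. A CV among resistant libraries at or below that of APOBEC3B occurred in 0.52% of the genes tested, and 32.2% of genes had a lower CV in the resistant than in the sensitive libraries. The difference in spread itself was not tested. APOBEC3C, APOBEC3D, APOBEC3F and APOBEC3G had resistant CVs of 28.1%, 76.2%, 30.8% and 126%.

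**Figure D2:**
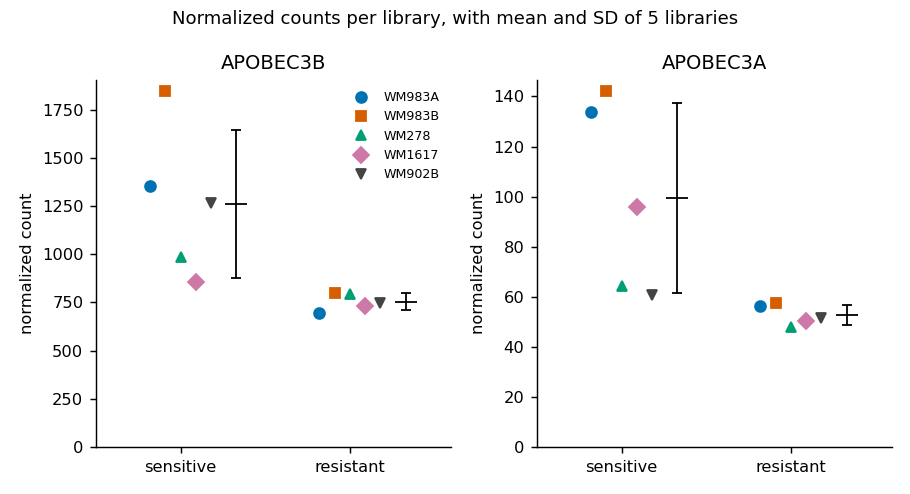
Normalized counts (y axis) of APOBEC3B (left) and APOBEC3A (right) in the 5 sensitive and 5 resistant libraries, 1 point per line, with the mean and SD of the 5 libraries as a bar and whiskers. The resistant libraries lie between 696 and 801 for APOBEC3B and between 48.1 and 57.4 for APOBEC3A, below every sensitive library.

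APOBEC3G was lower in the resistant library of 2 lines and higher in that of the other 3, and its ratios were the widest of the 6 members. Its normalized counts were 322 in sensitive WM983A and 5.84 in resistant WM983A, a level 55.2-fold lower (log2 ratio -5.56, 95% counting interval -7.42 to -4.55). In WM1617 they were 47.9 and 4.44, a level 10.8-fold lower (-3.17, interval -5.15 to -2.13). In the other 3 lines the resistant library was higher, with 136 and 366 in WM983B (2.69-fold, interval 1.14 to 1.72 on the log2 scale), 243 and 619 in WM278 (2.55-fold, 1.14 to 1.56) and 69.1 and 169 in WM902B (2.44-fold, 0.87 to 1.72). The groups overlapped, and the resistant libraries spanned 140-fold from the lowest to the highest against 6.73-fold in the sensitive libraries. The lines of one patient differed in direction, with WM983A lower and WM983B higher. WM1617 was lower and WM278, from the same patient as WM1617, higher, but the WM278 ratio belongs to the values that chose the members. The log2 fold change over the 4 lines was -0.05 (SE 1.25, unadjusted p = 0.967, adjusted p = 0.996, edgeR), with the cell line as a block it was -1.20 (unadjusted p = 0.487, edgeR), and without WM983A it was 1.11. In resistant WM983A and WM1617 the values rest on 5 and 5.09 counts.

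**Figure D3:**
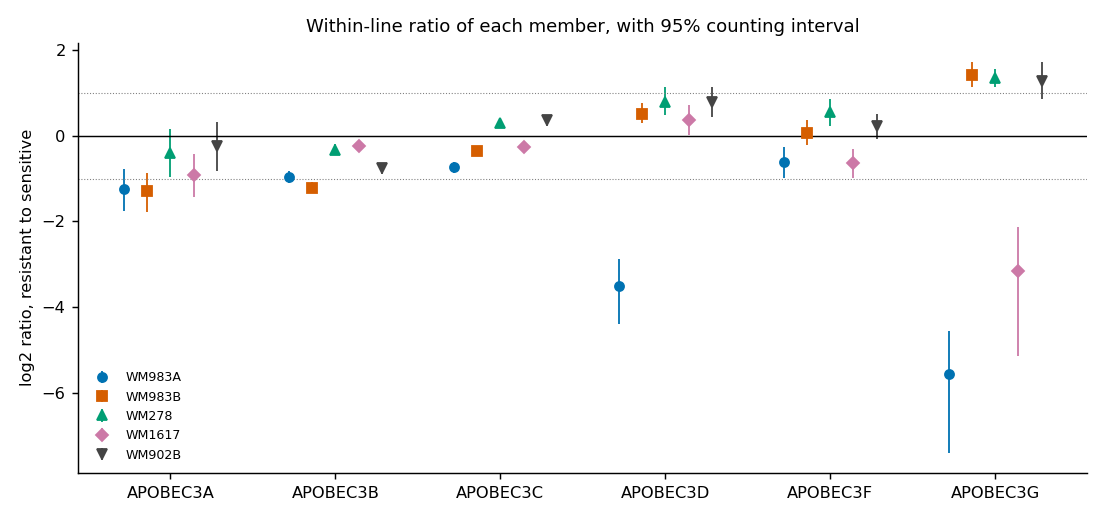
Within-line log2 ratio, resistant over sensitive (y axis), of 6 APOBEC3 genes in each line, 1 symbol per line, with 95% counting intervals as bars, a line at 0 and dotted lines at 2-fold. All 5 symbols of APOBEC3A and APOBEC3B lie below 0, whereas those of APOBEC3G lie between 1.28 and 1.42 in 3 lines and at -3.17 and -5.56 in WM1617 and WM983A.

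APOBEC3D, a cytoplasmic restriction factor with 2 deaminase domains, shared the low value of resistant WM983A. Its normalized counts were 238, 255, 115, 122 and 119 in the sensitive libraries of WM983A, WM983B, WM278, WM1617 and WM902B, and 19.9, 367, 202, 158 and 207 in the resistant libraries. Resistant WM983A was thus 11.9-fold below its sensitive library (log2 ratio -3.51, 95% counting interval -4.39 to -2.87), while the other 4 lines had higher resistant values, with log2 ratios of 0.37 in WM1617 to 0.80 in WM278. The groups overlapped, and the log2 fold change over the 4 lines was 0.05 (SE 0.71, unadjusted p = 0.945, edgeR). It was -0.23 with the cell line as a block, and 0.58 without WM983A.

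APOBEC3C, a single-domain member and the one with the highest median level per kilobase, differed less. Its normalized counts were 1388, 1866, 1756, 1040 and 1013 in sensitive WM983A, WM983B, WM278, WM1617 and WM902B, and 836, 1457, 2157, 863 and 1303 in the resistant libraries. Ratios were below 0 in WM983A, WM983B and WM1617 (-0.73, -0.36 and -0.27) and above 0 in WM278 and WM902B (0.30 and 0.36), each with a counting interval that excluded 0. The groups overlapped, with a log2 fold change of -0.24 over the 4 lines (SE 0.30, unadjusted p = 0.44, edgeR).

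APOBEC3F, which restricts HIV lacking Vif together with APOBEC3G, had the most even level of the sensitive libraries, with normalized counts of 181, 186, 136, 178 and 176 in the same order of lines. The resistant libraries had 118, 195, 200, 114 and 205. Resistant WM983A and WM1617 were below all sensitive libraries and the other 3 resistant libraries above them. The log2 fold change was -0.18 over the 4 lines (SE 0.31, unadjusted p = 0.572, edgeR). APOBEC3H, whose common haplotypes differ in protein stability, had 3, 0, 0, 2 and 1.24 counts in the sensitive and 0.6, 3, 4, 4.97 and 1 in the resistant libraries, so that no difference was detectable at this depth.

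Line by line, the 6 members had a median log2 ratio below 0 in WM983A (-1.10), WM1617 (-0.45) and WM983B (-0.14) and above 0 in WM278 (0.42) and WM902B (0.29), against medians over all genes between -0.01 and 0.03. In WM983A, 3 of 6 members were at least 2-fold lower, where 19.4% of all genes were, and 0 were 2-fold higher, where 16.9% were. In WM983B, 2 were 2-fold lower and 1 higher, against 11.2% and 16.2% of genes. In WM1617, 1 was 2-fold lower, against 3.79% of genes, and 0 higher, against 2.83%. In WM902B 1 was 2-fold higher, against 15.4%, and 0 lower, against 12%. In WM278, whose ratio chose the members, 1 of 6 was 2-fold higher, beside 12% of genes, and 0 lower, beside 7.02%. WM983A was the line with the widest spread of ratios over all genes (SD 1.77, against 0.602 in WM1617).

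Members whose levels varied together over the 10 libraries were APOBEC3C with APOBEC3G (Pearson r of log2 normalized counts 0.86, n = 10), APOBEC3A with APOBEC3B (0.80) and APOBEC3F with APOBEC3G (0.80). The r of APOBEC3A with APOBEC3C, APOBEC3D, APOBEC3F and APOBEC3G was 0.20 to 0.25. These are descriptions over libraries that share cell lines and, for some pairs, reads.

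The genes whose levels were most like each member's, among all genes tested, were found by the same r over 10 libraries. For APOBEC3B they were RCHY1 (0.941), THEM4 (0.939) and RP11-478B9.3 (0.936), and for APOBEC3A they were DCUN1D1 (0.938), TBC1D31 (0.932) and RP11-360L9.7 (0.922). For APOBEC3G they were FASTK (0.977), ZNF813 (0.959) and TEX41 (0.956), and for APOBEC3C they were CHSY3 (0.978), PXDC1 (0.944) and EXOC1 (0.940). ELMO2 (0.969) and SLC26A6 (0.964) were among those most like APOBEC3D, and GSTT2B (0.940), RNF185-AS1 (0.923) and RAB24 (0.896) most like APOBEC3F. None of the genes named here is another member.

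The flanks of the cluster differed by line as well. The 4 nearest protein-coding genes on either side were CBX6, NPTXR, DNAL4 and SUN2 before and CBX7, PDGFB, RPL3 and SYNGR1 after the cluster. Of these, 0 had an unadjusted p of 0.05 or less over the 4 lines (edgeR), beside 4.58% of all genes higher and 2.04% lower. PDGFB, a growth factor subunit, had the largest value (log2 fold change 3.89, SE 1.77, unadjusted p = 0.0566, edgeR). With the cell line as a block it had 2.34 (unadjusted p = 0.125, edgeR). Its sensitive and resistant counts were 2 and 0 in WM1617 and 2 and 3 in WM902B, at or under the floor. The value thus rested on WM983A and WM983B, which share a patient. CBX7, a Polycomb subunit and the nearest gene after the cluster, had log2 ratios of 1.17 in WM278, 0.95 in WM983B and 0.82 in WM902B, and of -0.02 in WM983A and -0.31 in WM1617. APOBEC3G was also higher in WM983B and WM902B, and in WM278, whose ratio chose the members. A relation of CBX7 with APOBEC3G was not tested. In WM278 itself the largest neighbour ratios were 4.28 for NPTXR, 2.61 for PDGFB and 1.79 for SYNGR1, all above the 1.35 of APOBEC3G. In WM983A the genes before the cluster had -1.75 (SUN2), -1.29 (NPTXR), -0.93 (DNAL4) and 0.19 (CBX6). After the cluster, SYNGR1 had -0.59, RPL3 1.04 and PDGFB 2.25 in that line.

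**Figure D4:**
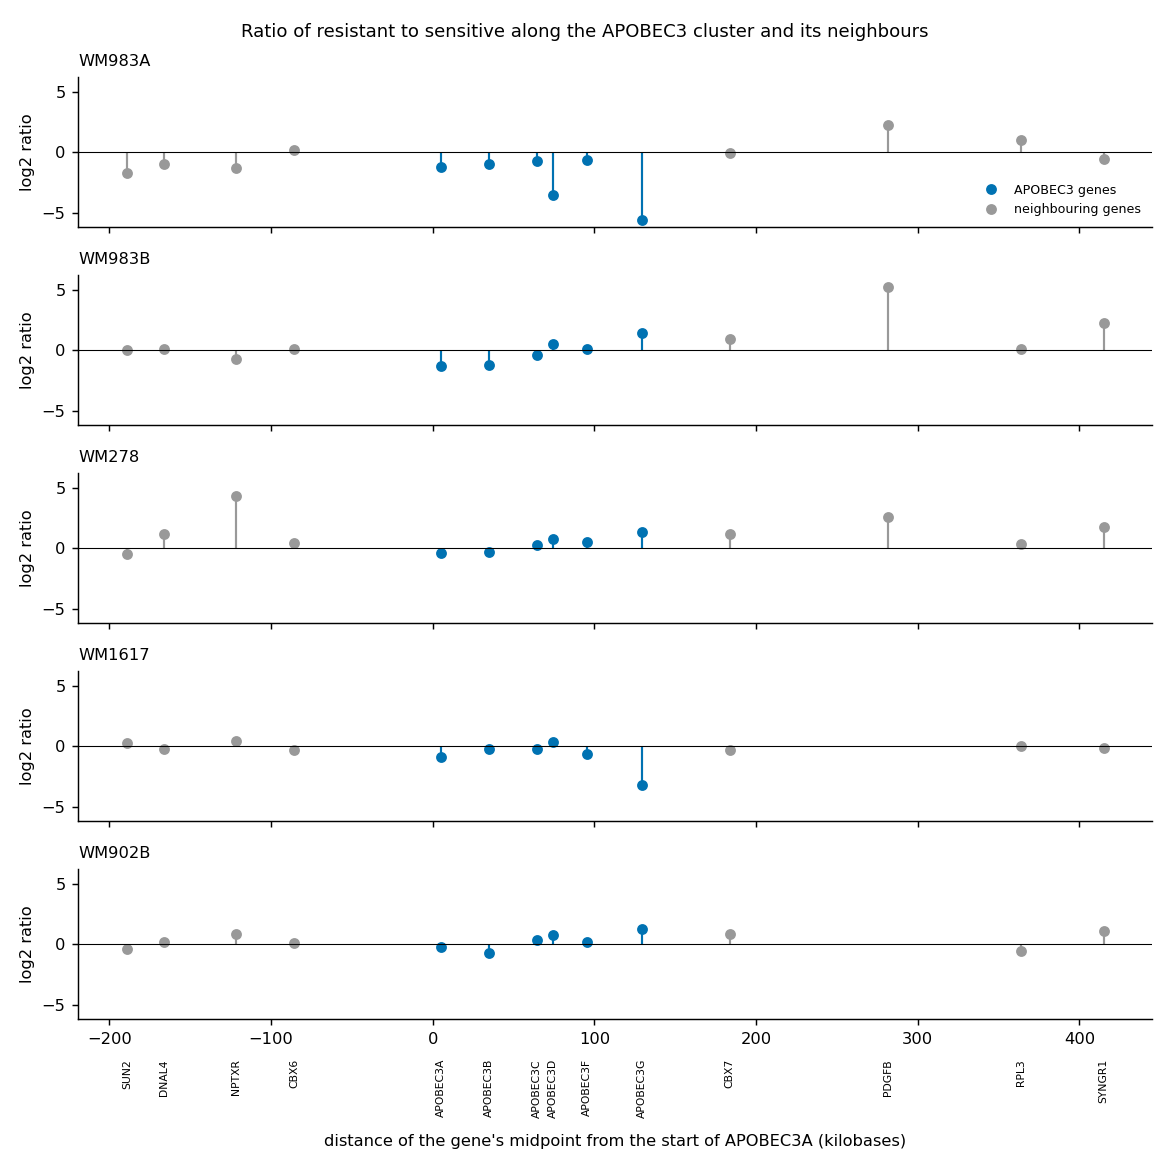
Log2 ratio of resistant to sensitive (y axis) for 6 APOBEC3 genes and up to 8 neighbours, by distance of each gene's midpoint from the start of APOBEC3A (x axis, kilobases), with 1 panel per line. APOBEC3H and genes with at most 3 counts in both libraries are left out, and APOBEC3A and APOBEC3B lie below 0 in every panel while APOBEC3G changes sign between panels.

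Genes of interferon and NF-kB signalling, DREAM and E2F factors, uracil repair, retrovirus restriction and RNA editing were read from fixed lists. Of 20 interferon-stimulated genes, 18 were tested over the 4 lines, 1 was higher at an unadjusted p of 0.05 (4.58% of all genes were) and 0 were lower. This was IFITM1, an antiviral membrane protein (log2 fold change 5.37, SE 2.23, unadjusted p = 0.0406, adjusted p = 0.753, edgeR). With the cell line as a block IFITM1 was no longer past 0.05 (unadjusted p = 0.0829, edgeR), and OASL (log2 fold change 1.56, unadjusted p = 0.0191, edgeR) and DDX58 (0.90, unadjusted p = 0.0273, edgeR) were, 2 of 18 beside 3.81% of all genes. XAF1 (4.47, unadjusted p = 0.0751, edgeR) and IFIT3 (1.42, unadjusted p = 0.128, edgeR) did not pass. The median log2 fold change of the list was 1.55, against 0.04 over all genes, and 0.81 with the block. Its median ratio was 2.19 in WM902B, 1.77 in WM983B and 1.44 in WM278, the lines with APOBEC3G ratios of 1.28, 1.42 and 1.35. It was 0.00 in WM1617 and -1.35 in WM983A, the lines with APOBEC3G ratios of -3.17 and -5.56. Leaving out WM278, whose ratio chose the members, both values had the same sign in 3 of 4 lines, and in WM1617 the 10.8-fold lower APOBEC3G stood beside a list median of 0.00. The relation between them was not tested.

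**Figure D5:**
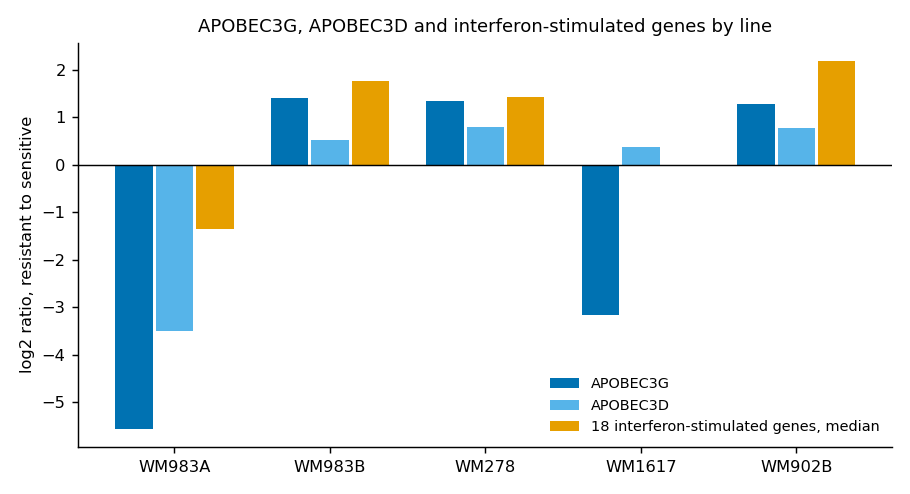
Log2 ratio of resistant to sensitive (y axis) of APOBEC3G, APOBEC3D and the median of 18 interferon-stimulated genes in each of the 5 lines. Bars of all 3 point down in WM983A and up in WM983B, WM278 and WM902B, and in WM1617 APOBEC3G is at -3.17 while the list median is 0.00.

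Of 12 interferon receptors, kinases and factors tested, 0 had an unadjusted p of 0.05 or less (edgeR), with a median log2 fold change of 0.53. Of all genes, 4.58% were higher and 2.04% lower at this p. At these shares a short list can hold 0, so this count and the next ones do not show that the genes were unchanged. The smallest p was that of JAK1, the kinase of interferon receptors (0.58, unadjusted p = 0.0594, edgeR). For 8 NF-kB subunits and feedback targets the count was also 0 (edgeR), with a median of 0.03 that turned to -0.03 with the cell line as a block, and NFKBIA, the inhibitor of NF-kB, had 0.99 (unadjusted p = 0.124, edgeR, and 0.0253 with the cell line as a block). Among 13 DREAM and E2F factors 0 passed (edgeR), with a median of -0.28. RBL1, the pocket protein p107, had -0.75 (unadjusted p = 0.0552, edgeR), RBL2, the pocket protein p130, 0.56 (unadjusted p = 0.0595, edgeR), and E2F1 -0.99 (unadjusted p = 0.0963, edgeR, and 0.0456 with the block). The median ratio of these 13 genes was 0.17 in WM983A and 0.01 in WM1617, and between -0.79 (WM278) and -0.62 (WM902B) in the other 3 lines.

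Of 14 genes that remove uracil from DNA or process abasic sites, 1 was lower at an unadjusted p of 0.05, beside 2.04% of all genes. This was POLB, the gap-filling polymerase of base excision repair (log2 fold change -0.88, SE 0.29, unadjusted p = 0.0161, adjusted p = 0.739, edgeR). HMCES, a protein that shields abasic sites, had -0.47 (unadjusted p = 0.0644, edgeR), and the list had a median of -0.30. Of 6 genes of the dNTP pool and of retrovirus restriction, 0 passed (edgeR), beside 4.58% of all genes higher and 2.04% lower, with a median of 0.79. MX2 had 4.25 (unadjusted p = 0.0659, edgeR), and 3.06 with the cell line as a block (unadjusted p = 0.327, edgeR). Its sensitive and resistant counts were 25 and 890 in WM983B and 0 and 225 in WM902B. They were 30 and 1 in WM983A and 2 and 1 in WM1617, so its direction differed between lines. With the cell line as a block SAMHD1, a dNTP hydrolase, was past 0.05 (log2 fold change 0.72, unadjusted p = 0.0324, edgeR, against 0.15 without the block). Of the adenosine deaminases that edit RNA, ADAR had 0.39 (unadjusted p = 0.3, edgeR) and ADARB1 -1.54 (unadjusted p = 0.0522, edgeR).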

How the data were processed

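Poly(A)-selected libraries were read over 75 cycles from one end. HISAT2 alignment to GRCh38 and StrandNGS quantification were done by the authors. The raw columns the authors deposited hold estimated counts, of which 24.1% of the values above 0 are whole. Their normalized columns, deposited on a log2 scale after DESeq scaling, hold the ratio to the sensitive library of the line. They were used only to restore 455 raw values that the files held as dates. Counts were rounded and tested with edgeR 4.0.16 (R 4.3.3, TMM, filterByExpr, quasi-likelihood, two-sided, Benjamini-Hochberg over 17307 genes) in 8 libraries of 4 lines, since WM278 chose the members. Normalized counts are counts divided by TMM factors scaled to a common library size. Within-line log2 ratios add a pseudocount of 1. Fold changes between states are called at 2-fold and a p of 0.05. Levels per kilobase use GENCODE 44 exon length. Each resistant line was derived from its sensitive one, and the within-line ratios paired their libraries. The main fit had no term for the cell line. Deviations of the paired libraries from the group means correlated with r of -0.06 in WM983A and 0.38 to 0.67 in the other 4 lines. Tested on simulated data as variable as these libraries, edgeR recovered 137 of 193 genes changed by 3 on the log2 scale with 3 false calls (16843 genes run). DESeq2 1.42.0 recovered 177 with 57 false calls. Changes near 2-fold and pairing by cell line were not simulated, so recovery at the size seen for APOBEC3A and APOBEC3B is not known. Alternatives were the cell line as a block, all 5 lines, DESeq2, other scalings, filters and pseudocounts, leaving out the date values, and leaving out each line. The block in DESeq2, with all 5 lines and for the gene lists was added after the data were seen. So was naming MITF, PMEL, MLANA, TYR, DCT, PTPRC, CD3D, AIF1, CD14, DCN, CDH1, OASL and DDX58. Named genes were the members, other transcripts with an APOBEC3 symbol, the 4 nearest coding genes on each side, the 3 most similar genes of each member and up to 3 genes of each list with the smallest p. Some genes that this rule names are not reported here. Members and lists were chosen with earlier results of these data known.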

Additional observations from a re-analysis of the deposited data

Results flagged for a closer look

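In 21 groups of 5 values, made up of each member's sensitive libraries, resistant libraries and within-line ratios, the most extreme value was compared with its nearest neighbour as a share of the whole range. This share passed the 95% critical value in 2 of them, and chance alone passes it in about 1 group of 20. The log2 ratio of APOBEC3D in WM983A, -3.51, stood apart from the other 4 lines by 0.901 of the range. APOBEC3F in sensitive WM278, with 136 normalized counts, stood below the other sensitive libraries by 0.826 of the range on the log2 scale. That library is the denominator of the WM278 ratio that chose the members, so this value is a description and no independent sign of a low library.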

How the results depend on the processing

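APOBEC3A and APOBEC3B kept a negative log2 fold change under the 14 alternatives run, from -1.17 to -0.83 (adjusted p 0.249 to 1) and from -1.00 to -0.67 (adjusted p 0.164 to 1), as did APOBEC3C (-0.43 to -0.09) and APOBEC3F (-0.34 to -0.04). The sign of APOBEC3D turned with the cell line as a block (-0.23), with that block in DESeq2 (-0.24) and with no filter on low counts (-0.01), and ranged from -0.32 to 0.58 when 1 line was left out. APOBEC3G turned to 0.51 with all 5 lines and ranged from -1.29 to 1.11 when 1 line was left out. Genes called at an adjusted p numbered 113 with DESeq2, 460 with the block in DESeq2 and 0 to 1 when 1 line was left out. Genes called at an unadjusted p, 841 in all, numbered 2189 with no filter, 1561 with the block in DESeq2 and 410 to 2017 when 1 line was left out, with 2017 without WM1617. The causes were not tested. The block changed no other call of a member, and the within-line ratios of all 7 members stayed within their counting intervals under the 4 alternatives tried. A line has 1 library per state, and counts under 6 for APOBEC3G in resistant WM983A and WM1617 and for APOBEC3H throughout limit those values.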

Other observations

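In the sensitive state, the metastatic line of a patient was above the primary line for APOBEC3B in WM983B (1848 normalized counts, against 1352 in WM983A) and below it in WM1617 (856, against 985 in WM278). For APOBEC3G it was below the primary line in both patients, with 136 in WM983B against 322 in WM983A and 47.9 in WM1617 against 243 in WM278. With 2 patients no test was made.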
